A study of Mus musculus with 2 samples.

Results

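The interferon regulatory factors are transcription factors that share a DNA-binding domain for GAAA-containing sites, and 8 of their genes, Irf1, Irf2, Irf3, Irf4, Irf5, Irf7, Irf8 and Irf9, were taken by symbol from 55536 annotated genes. They were measured by RNA-seq of polyadenylated RNA in bone marrow-derived macrophages of the mouse strain C57BL/6J, which are primary cells and not a cell line. Both libraries, biological replicates 1 and 2, came from cells treated for 30 min at 100 ng/ml, and no untreated cells were among the samples, so nothing below shows induction. The ligand is lipid A, the membrane anchor of lipopolysaccharide, in the description, but lipoprotein A, classed as a protein, in the treatment field. Sex and age were not collected, and each library has its own biosample record, though both point to 1 donor record.

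In resting macrophages IRF3, IRF5 and IRF7 wait in the cytoplasm. Toll-like and nucleic acid receptors activate the kinases TBK1 and IKKε, which phosphorylate IRF3 and IRF7, or the MyD88 pathway, which acts on IRF5 and IRF7, and the activated factors then drive type I interferon genes. Secreted interferon signals back to the cell through a complex that contains IRF9 and binds the interferon-stimulated response element (ISRE). IRF1 is an activator whose gene responds quickly to interferon and NF-κB, IRF2 opposes it at shared sites, and IRF8 and IRF4 work with the ETS factor PU.1, IRF8 being a lineage factor of monocytes and macrophages. RNA levels do not report phosphorylation.

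The libraries held 37784941 and 51904470 expected counts over genes, in the order replicate 1 and replicate 2, which is kept for all pairs of values below. A count of 0 allows up to 3 counts, that is 0.0794 and 0.0578 CPM, counts scaled to library size, and intervals cover counting error only. All 8 macrophage markers reached 1 TPM in both libraries, TPM being a length-scaled share of transcripts that sums to a fixed total. Among markers of other cells, 2 of 7 neutrophil genes were detected and the list summed to 309 and 55.6 TPM, most of it S100a8 and S100a9. All 4 monocyte genes were detected, and they summed to 34.9 and 31.8 TPM. Of 7 T cell genes 1 was detected, Cd4, at 111 and 82.2 TPM. None of 5 NK cell genes was detected, and they summed to 0.02 and 0.01 TPM. A ribosomal RNA gene took 10.9% and 5.05% of counts. The biological coefficient of variation over genes was 0.25. In these bulk samples fewer cells of a type and less RNA per cell cannot be told apart, and the part of these library differences in the results below was not tested.

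In both libraries 7 of the 8 genes reached 1 TPM, against 10658 of all 55536 annotated genes. Irf4 was the exception, and Irf1, Irf5, Irf7 and Irf8 exceeded 100 TPM in both libraries. These values, and those below unless stated, are from the first of 2 deposited quantifications. In the second, Irf7 was at 91.0 TPM in replicate 1, while Irf1, Irf5 and Irf8 stayed above 100 TPM in both libraries. The 8 genes together reached 701 TPM in replicate 1 and 1110 TPM in replicate 2. Without Irf1 and Irf7 the sums were 438 and 439 TPM, so on this TPM scale the gap between the libraries lay in that pair. Rescaled to protein-coding genes, Irf8 was at 214 and 187 TPM, Irf5 at 150 and 137 and Irf2 at 77.3 and 72.7, all lower in replicate 2. Irf3, Irf9 and Irf4 were higher on that scale, at 29.0 and 38.7, 56.9 and 58.2, and 0.73 and 1.65 TPM. Irf1 took 21.5% of the family's TPM in replicate 1 and 41.8% in replicate 2, whereas Irf8 took 25.3% and 14.9%, the largest share in replicate 1. By mean TPM the order was Irf1, Irf8, Irf7, Irf5, Irf2, Irf9, Irf3 and Irf4. Each of the first 4 overlapped its neighbour in range over the libraries, so the order of neighbours among them is not settled. Irf1 and Irf8 each exceeded Irf5 in both libraries without overlap, and Irf1 exceeded Irf7 in both with overlapping ranges. Irf5, Irf2, Irf9, Irf3 and Irf4 stood in the same order in both libraries without overlap.

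**Figure D1:**
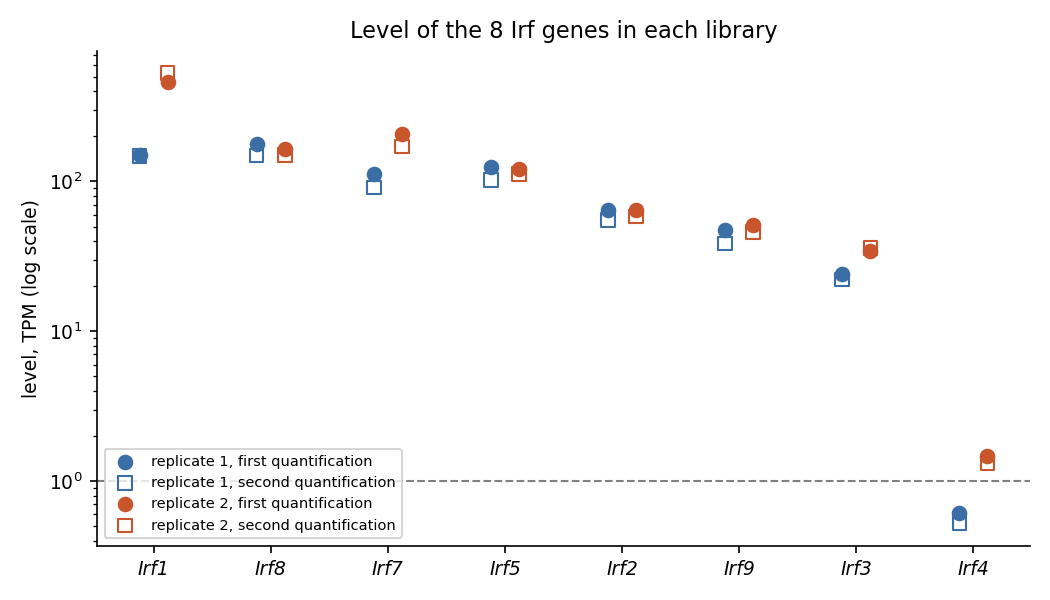
Level of each Irf gene in TPM on a log axis, with filled circles for the first deposited quantification, open squares for the second, and a dashed line at 1 TPM. Irf1 and Irf7 sit apart in the 2 libraries (150 and 464 TPM, 112 and 207 TPM), Irf2 and Irf5 nearly coincide, and only Irf4 crosses the line.

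The libraries were compared gene by gene with an exact binomial test on counts, scaled by the trimmed mean of M-values (TMM) and adjusted by Benjamini-Hochberg over 12266 genes. This compares 2 libraries of a single condition against counting error and estimates no spread between samples. It called 6 of the 8 Irf genes, against 63.5% of all genes tested, so the count itself is near the background at this depth. Irf1, Irf3, Irf4 and Irf7 were higher in replicate 2, for which the background is 32.2%, and Irf5 and Irf8 were lower, for which it is 31.3%. Past a 2-fold limit stood Irf1 and Irf4, both higher, against 4.79% of genes tested, and no Irf gene was lower by that much, against 2.85%. The median log2 ratio of replicate 2 to replicate 1 was 0.14 over the 8 genes and 0.00 over all genes. Scaling by total counts shifts the median of all genes to 0.12 and the calls to 42.8% higher and 20.3% lower, and under it 6 Irf genes were higher and 1, Irf8, lower.

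**Figure D2:**
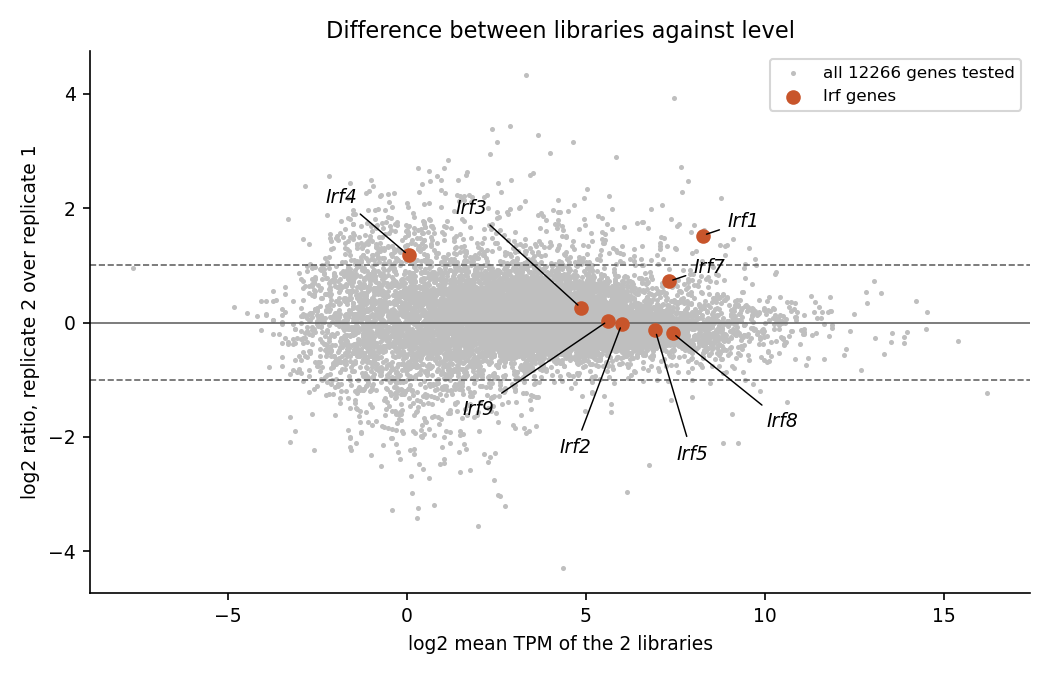
Log2 ratio of replicate 2 to replicate 1 (TMM-scaled counts) against log2 mean TPM for the 12266 genes tested, in grey, and the 8 Irf genes, in orange, with dashed lines at a 2-fold difference. Irf1 lies near the top edge of the genes at its level at 1.52, Irf7 is at 0.72, and Irf2, Irf5, Irf8 and Irf9 lie between -0.18 and 0.03.

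Irf1 (ENSMUSG00000018899.16, chr11:53770014-53778374, + strand, mm10), the activator, was the most variable abundant member. It had 6820 and 29156 counts, or 150 and 464 TPM, a mean of 307 ± 221 TPM (SD, n = 2). Replicate 2 was the higher by 2.87-fold (exact 95% interval 2.79 to 2.95), and the adjusted p of the exact binomial test was below the smallest number the software holds. Only 1.67% of genes tested had a higher ratio, a rank of 206 among 12266. The ratio stayed between 1.498 and 1.64 on the log2 scale under the other scalings and the second quantification. Among 1214 genes with a mean of 100 TPM or more, the 3 closest to Irf1 in log2 ratio were Isg15 (1.49), a ubiquitin-like interferon-induced protein, Mndal (1.47) and Ppp1r15a (1.46), which targets a phosphatase to the translation factor eIF2α. With 2 libraries this likeness rests on a single ratio, and 19 of the 1214 genes lay within 0.25 of Irf1. An antisense gene, Gm17334, shares 135 exonic bases with Irf1 and had 26 and 221 counts, few beside those of Irf1. Without a stated library strand, reads of that stretch cannot be told apart.

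Irf2 (ENSMUSG00000031627.9, chr8:46739732-46847458, + strand), the factor that opposes IRF1, was among the steadiest. It had 2724 and 3988 counts, or 64.3 TPM in each library. The ratio was 0.983 (exact 95% interval 0.936 to 1.03), with an adjusted p of 0.561 in the exact binomial test. The ratio of Irf1 to Irf2 TPM was therefore 2.34 in replicate 1 and 7.21 in replicate 2, and this spread came from Irf1. Under total counts Irf2 turned to 0.092 on the log2 scale, called higher with an exact binomial adjusted p of 0.0181.

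The promoters of Irf1, Irf2 and Irf8 are shown because they are the members with a GAS match, the STAT-binding pattern TTCNNNGAA, in the 250 bases before to 50 after the start. Sequences are from RefSeq (GRCm38.p6), the 250 bases before each start, 5′ to 3′ on the gene's strand. Capitals mark GAS, the ISRE core GAAANNGAAA, a narrow NF-κB motif and the TATA box TATAAA.
Irf1, chr11:53769764-53770013, + strand: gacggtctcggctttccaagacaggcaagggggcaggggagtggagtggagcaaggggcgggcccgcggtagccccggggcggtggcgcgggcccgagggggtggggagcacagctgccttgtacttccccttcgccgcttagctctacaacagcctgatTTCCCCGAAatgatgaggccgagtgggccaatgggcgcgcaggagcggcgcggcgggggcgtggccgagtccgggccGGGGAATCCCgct
Irf2, chr8:46739495-46739744, + strand: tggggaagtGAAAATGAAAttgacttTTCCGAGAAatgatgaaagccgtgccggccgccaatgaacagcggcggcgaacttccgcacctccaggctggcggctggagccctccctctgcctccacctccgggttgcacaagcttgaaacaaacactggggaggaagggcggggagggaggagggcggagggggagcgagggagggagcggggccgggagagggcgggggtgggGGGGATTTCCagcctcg
Irf8, chr8:120736108-120736357, + strand: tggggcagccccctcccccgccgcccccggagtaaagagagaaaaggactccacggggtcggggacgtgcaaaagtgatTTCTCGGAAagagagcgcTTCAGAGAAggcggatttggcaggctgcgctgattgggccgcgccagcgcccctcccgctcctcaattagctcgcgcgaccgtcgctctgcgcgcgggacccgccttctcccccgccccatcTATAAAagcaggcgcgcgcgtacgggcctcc
Irf1 holds its GAS at -90 and an NF-κB match at -13, counted from the start, and Irf2 holds the ISRE at -241, a GAS at -224 and an NF-κB match at -17. Irf8 holds 2 GAS matches, at -171 and -153, and a TATA box at -31. Both strands were searched. All 8 members were found among 32851 promoters, with 11 promoters between them. GAS occurred in 8.30% of all promoters, ISRE in 3.44%, the narrow NF-κB motif in 8.46% and TATAAA in 13.6%. TATAAA was also in Irf4 at -26 and Irf7 at -29, so 3 of the 11 promoters held it. A looser NF-κB pattern, GGGNNNNNCC, which overlaps the narrow form, was in 8 of the 11 promoters and in 50.8% of all promoters. A match is a run of letters. Irf1 and Irf2 share GAS and narrow NF-κB letters, and of the members Irf2 alone holds the ISRE. A link between these matches and the library ratios was not tested.

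**Figure D3:**
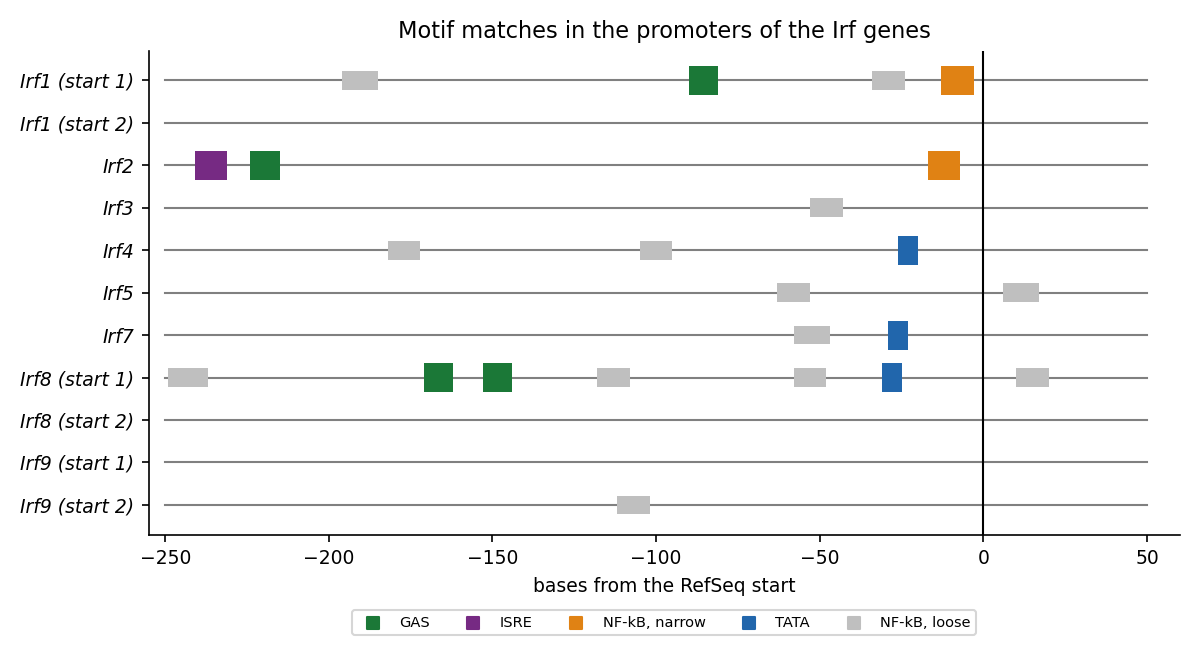
Motif matches in the 11 RefSeq promoters of the 8 Irf genes, by bases from the start (black line), with coloured boxes for GAS, ISRE, narrow NF-κB and TATA and grey boxes for the loose NF-κB pattern. GAS boxes stand in Irf1, Irf2 and Irf8 and TATA boxes in Irf4, Irf7 and Irf8, all before the start.

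Base composition differed among these promoters, given here for the first start of each gene. Those of Irf5 and Irf8 had 74.7% and 70.0% G and C and that of Irf1 69.3%, above the upper quartile of all promoters, 61.7%. Irf7 was at 55.0%, near the median of 52.7%. The second promoter of Irf8 was at 54.7% and that of Irf1 at 75%. CG dinucleotides numbered 32 in Irf1, 38 in Irf8 and 7 in Irf7, with a median of 7 over all promoters. The second promoters of Irf1 and Irf8 held 43 and 8. The leading transcripts of Irf1, Irf3, Irf5, Irf8 and Irf9 began exactly at a RefSeq start, while that of Irf2 began 13 bases and that of Irf7 57 bases before it.

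Of the signal-activated members, Irf7 (ENSMUSG00000025498.15, chr7:141262706-141266481, - strand), the main amplifier of interferon-α production, differed most. It had 4716 and 11571 counts, or 112 and 207 TPM, a mean of 160 ± 67.3 TPM (SD, n = 2). Replicate 2 was 1.65-fold higher (exact 95% interval 1.59 to 1.70; exact binomial adjusted p 3.79e-193), with 9.13% of genes tested at a higher ratio. Beside it, 2 of 6 markers of plasmacytoid dendritic cells, which hold much IRF7, were detected. The list summed to 311 and 557 TPM through Bst2 at 285 and 513 TPM, while Siglech had 45 and 29 counts. The part of such cells in the Irf7 level was not tested.

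Irf3 (ENSMUSG00000003184.15, chr7:44997648-45002848, + strand), which starts interferon-β transcription, was the scarcest of the detected members. It had 859 and 1529 counts, or 24.1 and 34.3 TPM. Replicate 2 was 1.19-fold higher (exact 95% interval 1.10 to 1.30; exact binomial adjusted p 6.54e-05). Transcripts annotated as retained introns held 84.15 and 351 of the Irf3 counts, or 9.80% and 23.0%. In the second quantification they held 33.8% and 38.9%. The part of these transcripts in the Irf3 ratio was not tested. On the TPM scale the log2 ratio was 0.51 against 0.26 from counts, TPM depending also on the transcript lengths assigned to each library. Irf7 exceeded Irf3 4.66-fold and 6.05-fold in TPM. Antisense neighbours overlap exons of both, Bcl2l12 by 88 bases in Irf3 and Phrf1 by 45 bases in Irf7.

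Irf5 (ENSMUSG00000029771.12, chr6:29526625-29541871, + strand), which drives inflammatory cytokine genes downstream of MyD88, had 5806 and 7864 counts, or 124 and 122 TPM. The ratio was 0.909 (exact 95% interval 0.879 to 0.941; exact binomial adjusted p 1.28e-07). That call is lost under total counts, where the log2 ratio is -0.02 and the exact binomial adjusted p 0.491. In the second quantification Irf5 was at 103 and 112 TPM, though its counts were still called lower. The antisense neighbour Tnpo3 shares 411 exonic bases with it and had 2087 and 3025 counts.

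The lineage factors stood far apart. Irf8 (ENSMUSG00000041515.10, chr8:120736358-120756694, + strand) had 11359 and 14889 counts, or 178 and 166 TPM, and was the leading member in replicate 1. Its ratio was 0.88 (exact 95% interval 0.859 to 0.902; exact binomial adjusted p 8.48e-24), a small difference that 64.1% of genes tested exceeded in size. In the second quantification Irf8 was at 148.6 and 150.1 TPM, beside 147.5 TPM for Irf1 in replicate 1. The Irf8 counts were still called lower there. Gm20388, on the same strand, overlaps 20337 bases of the Irf8 gene and had 4280 and 5501 counts, but shares 0 exonic bases with it.

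Irf4 (ENSMUSG00000021356.10, chr13:30749226-30766976, + strand), known from B cells, plasma cells, dendritic cells and alternatively activated macrophages, had 68 and 232 counts, or 0.61 and 1.46 TPM. Replicate 2 was 2.29-fold higher (exact 95% interval 1.74 to 3.05; exact binomial adjusted p 7.03e-10). Irf8 exceeded Irf4 291-fold and 114-fold in TPM. Beside the Irf4 values, 3 of 7 B cell markers were detected, with the list at 154 and 156 TPM through Blnk at 138 and 136 TPM. Of 5 plasma cell markers 3 were detected, with the list at 116 and 124 TPM through Xbp1 at 94.7 and 95.4 TPM, and Mzb1 at 0 counts. Conventional dendritic cell lists summed to 5.89 and 5.1 TPM (1 of 6 genes detected) and to 14.7 and 14.2 TPM (3 of 5). The part of these cells in the Irf4 level was not tested.

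Irf9 (ENSMUSG00000002325.15, chr14:55603571-55610030, + strand), the DNA-binding part of the complex that interferon activates, had 2593 and 3946 counts, or 47.3 and 51.5 TPM. Its ratio was 1.02 (exact 95% interval 0.972 to 1.07; exact binomial adjusted p 0.481). Under total counts Irf9 was called higher, at 0.15 on the log2 scale with an exact binomial adjusted p of 0.000116. Rnf31, on the same strand, shares 123 exonic bases with it.

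In Irf1, Irf2, Irf5 and Irf8 a single transcript led clearly. Irf8-201 made up 98.6% and 98.1% of Irf8 TPM, Irf5-201 90.2% and 91.0% of Irf5, and Irf2-201 72.1% and 74.7% of Irf2. The short partial models Irf2-205 and Irf2-203 had 12.8% and 5.04%, and 5.37% and 10.8%, on at most 27.35 counts each. Irf1-202 took 94.9% and 94.1% of Irf1 in the first quantification but 84.2% and 74.95% in the second. The difference went largely to Irf1-208, a partial model without a 123-base coding exon (chr11:53774346-53774468), at 0.37% and 0.62% in the first and 10.1% and 16.8% in the second. The quantifications therefore differ on the share given to this partial model, and how often the exon is skipped was not tested. The exon is printed in capitals with 12 bases on each side.
Irf1-202: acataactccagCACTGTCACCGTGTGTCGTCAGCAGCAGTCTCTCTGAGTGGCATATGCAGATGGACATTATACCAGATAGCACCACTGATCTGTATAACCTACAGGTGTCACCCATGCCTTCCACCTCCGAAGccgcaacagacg
Irf1-208: acataactccagccgcaacagacg

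Irf7 and Irf9 each spread over several coding transcripts. Irf7-201 had 59.2% and 45.3% of Irf7 TPM, Irf7-203, which starts an exon 96 bases later, 21.7% and 20.1%, and Irf7-202, which skips a 93-base exon, 14.3% and 19.4%. All of these lengths are multiples of 3, so the reading frame is kept. The transcript Irf7-210, singled out after its values were seen, keeps a 69-base intron (chr7:141264656-141264724) and took 2.44% and 6.99% of the gene, on 113 and 840 counts, with like values of 2.98% and 8.63% in the second quantification. The intron is shown in capitals between 12 exonic bases on each side, and the spliced form after it.
Irf7-210: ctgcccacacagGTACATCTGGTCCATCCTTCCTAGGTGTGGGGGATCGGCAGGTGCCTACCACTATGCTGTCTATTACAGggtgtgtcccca
Irf7-201: ctgcccacacagggtgtgtcccca
Irf9-202 had 62.4% and 60.3% of Irf9 TPM, Irf9-205, which begins at a second RefSeq start, 27.4% and 27.1%, and Irf9-203 8.63% and 8.21%. These shares were steady between the libraries, but Irf9-205 was at 14.04% and 14.6% in the second quantification.

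Irf3 was the member whose isoforms were least settled. Irf3-201 had 63.6% and 46.3% of the gene's TPM in the first quantification and 29.8% and 20.4% in the second. Irf3-202 had 75.3 counts in replicate 1 and 0 in replicate 2, and Irf3-213 0 and 126, with the same coding length of 1257 bases as Irf3-201. Irf3-207, which keeps a 98-base intron (chr7:45000547-45000644), had posterior mean counts of 63.9 with a posterior SD of 24.6 in replicate 1, and 266 with 38.0 in replicate 2. Its share was 7.77% and 16.7%, but 26.6% and 24.6% in the second quantification, so the difference between the libraries appeared in the first alone. The kept intron is in capitals. Its length is not a multiple of 3.
Irf3-207: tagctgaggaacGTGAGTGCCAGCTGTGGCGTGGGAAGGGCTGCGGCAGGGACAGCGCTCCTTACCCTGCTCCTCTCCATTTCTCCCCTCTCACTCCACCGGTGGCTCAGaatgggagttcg
Irf3-201: tagctgaggaacaatgggagttcg

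The Irf4 transcripts are shown because their shares rest on few reads. Irf4-201 and Irf4-202 differ by 3 bases at the start of an exon (chr13:30753445-30753447), shown in capitals.
Irf4-201: ctgccagcccagCAGgttcataactac
Irf4-202: ctgccagcccaggttcataactac
The share of Irf4-201 was 3.33% in replicate 1 and 50% in replicate 2. The deposited posterior mean counts in replicate 1, however, were 32.0 for Irf4-201 and 36.04 for Irf4-202, each with a posterior SD of 18.7, so these reads do not separate the forms. In replicate 2 the posterior means were 116 for each form, with an SD of 31.1.

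Transcripts annotated as retained introns took a larger share in replicate 2 in 5 of the 6 members that have them. The shares were 16.5% and 33.8% for Irf3, 3.25% and 9.20% for Irf7, 1.52% and 4.35% for Irf9, 1.14% and 2.03% for Irf1 and 0.14% and 0.30% for Irf2. Irf8 went the other way, at 1.11% and 0.81%. Over the 6204 detected genes with such a transcript, the median share was 0.73% and 2.08%, and 67.6% of genes were higher in replicate 2, so the direction in the Irf genes was that of the libraries as a whole. In the second quantification Irf3 was at 41.5% and 48.8% and Irf7 at 4.55% and 12.1%.

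**Figure D4:**
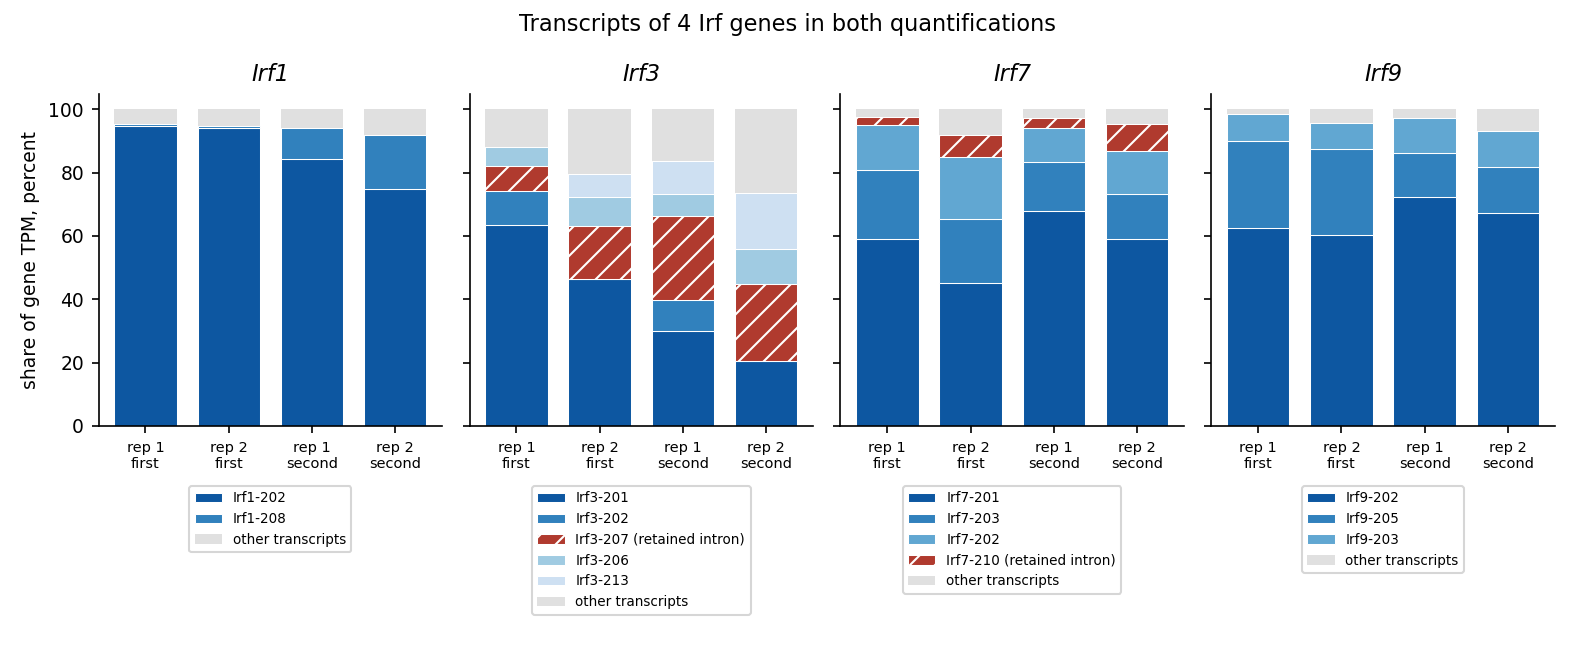
Share of gene TPM, in percent, of the main transcripts of Irf1, Irf3, Irf7 and Irf9 in both libraries and both deposited quantifications, with hatched red for retained-intron transcripts and pale grey for all others. Irf1-208 is visible in the second quantification alone (10.1% and 16.8%), Irf3 differs most between quantifications, and Irf7-210 is larger in replicate 2 in both.

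The genes around the family, in lists of their partners and targets, were set beside the same background of 32.2% higher and 31.3% lower. Past 2-fold the background is 4.79% higher and 2.85% lower. For values under total counts it is 42.8% higher and 20.3% lower, with a median of 0.12 over all genes. Of the 14 adaptors, sensors and kinases of IRF3 and IRF7 activation, all were detected, 11 were higher in replicate 2 and 2 lower, with a median log2 ratio of 0.48. The kinase genes Ikbke (60.3 and 83.4 TPM) and Tbk1 (38.0 and 59.7 TPM) and the RNA sensor gene Ddx58 (47.5 and 90.2 TPM) were the most abundant by mean. Tmem173, which encodes STING, and Tank, a TBK1-binding adaptor, exceeded 2-fold, at 1.07 and 1.02 on the log2 scale. Of the 10 genes of the MyD88 branch that acts on IRF5 and IRF7, 4 were higher and 2 lower, with a median of 0.05, but under total counts 7 were higher and 0 lower, with a median of 0.17. Myd88 itself was at 54.5 and 67.3 TPM. Lyn, a kinase that restrains IRF5, was at 107 and 109 TPM, called lower at -0.06 but higher, at 0.06, under total counts. Slc15a4, a lysosomal transporter, was at 80.9 and 177 TPM although its counts of 2073 and 2965 gave a log2 ratio of -0.06, so its TPM gap is not one of counts.

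Among the 10 interferon genes none reached 1 TPM in both libraries, and 6 had 0 counts in both. Ifnb1, the target of IRF3, was the exception in replicate 2, with 1 and 59 counts or 0.08 and 3.61 TPM. It fell below the count filter, and the ratio was 39.6 with an exact 95% interval of 6.84 to 1590. Ifna2 had 2 and 2 counts and Ifnk 0 and 1. Of 13 receptor, JAK-STAT and feedback genes, 9 were higher and 3 lower in replicate 2, with a median of 0.23. The receptor gene Ifnar2 was at 171 and 144 TPM, called lower, and the feedback inhibitor Socs3 at 51.9 and 230 TPM, at 2.06 on the log2 scale.

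Of the 12 DNA-binding partners, 6 were higher and 2 lower, with a median of 0.17, but under total counts 9 were higher and 1 lower, with a median of 0.28. Spi1, which encodes the IRF4 and IRF8 partner PU.1, was at 244 and 294 TPM, while Spib, its lymphoid relative, was at 0.25 and 0.28 TPM. Junb and Jun, which encode AP-1 subunits, were at 532 and 748 TPM and at 261 and 261 TPM. Jun was called lower at -0.08 but higher, at 0.04, under total counts. Of the 9 genes tested for IRF2 corepression and IRF turnover, 4 were higher and 3 lower, with a median of 0.05. The ubiquitin ligase gene Stub1 was at 58.9 and 50.8 TPM, the corepressor gene Irf2bp2 at 35.2 and 47.2 TPM and the deubiquitinase gene Usp7 at 37.8 and 42.8 TPM.

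The target lists differed in size of shift. All 15 ISRE target genes were higher in replicate 2, with a median of 1.26. Past 2-fold were 9 of them, against 4.79% of all genes tested. Cxcl10, a chemokine, was at 52.8 and 352 TPM (2.72 on the log2 scale), and the antiviral genes Ifi44, Mx1 and Ifit1 followed at 2.05, 1.73 and 1.68. Ifit2 was at 117 and 372 TPM, and Ifit3, which has a near-identical copy and is therefore less certain, at 153 and 390 TPM. Of 14 IRF1 target genes tested, 12 were higher and 0 lower, with 4 past 2-fold and a median of 0.75. The largest were Ptgs2, encoding a prostaglandin synthase (17.1 and 83.6 TPM, 2.21), Il12b, an IL-12 subunit (1.03 and 5 TPM, 2.15), Gbp2, a guanylate-binding protein (37.8 and 135 TPM, 1.75), and Cd274, which encodes PD-L1 (62.4 and 133 TPM, 1.01). The antigen-presentation gene B2m was at 6231 and 8644 TPM. Psmb8, an immunoproteasome subunit, was at 189 and 218 TPM and was not called (exact binomial adjusted p 0.104).

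Of the 10 IRF8 target genes, 7 were higher and 3 lower, with a median of 0.24, while Irf8 itself was slightly lower. Cst3, a protease inhibitor, was at 1117 and 1301 TPM, Csf1r, the growth factor receptor of macrophages, at 764 and 882 TPM, and Cd180, a Toll-like receptor relative, at 415 and 386 TPM, called lower. Past 2-fold stood Il12b, which is also on the IRF1 list, and Klf4, a monocyte transcription factor, at 0.75 and 2.57 TPM. With 2 libraries, genes that differ between them differ together whatever their links, and no association can be tested.

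**Figure D5:**
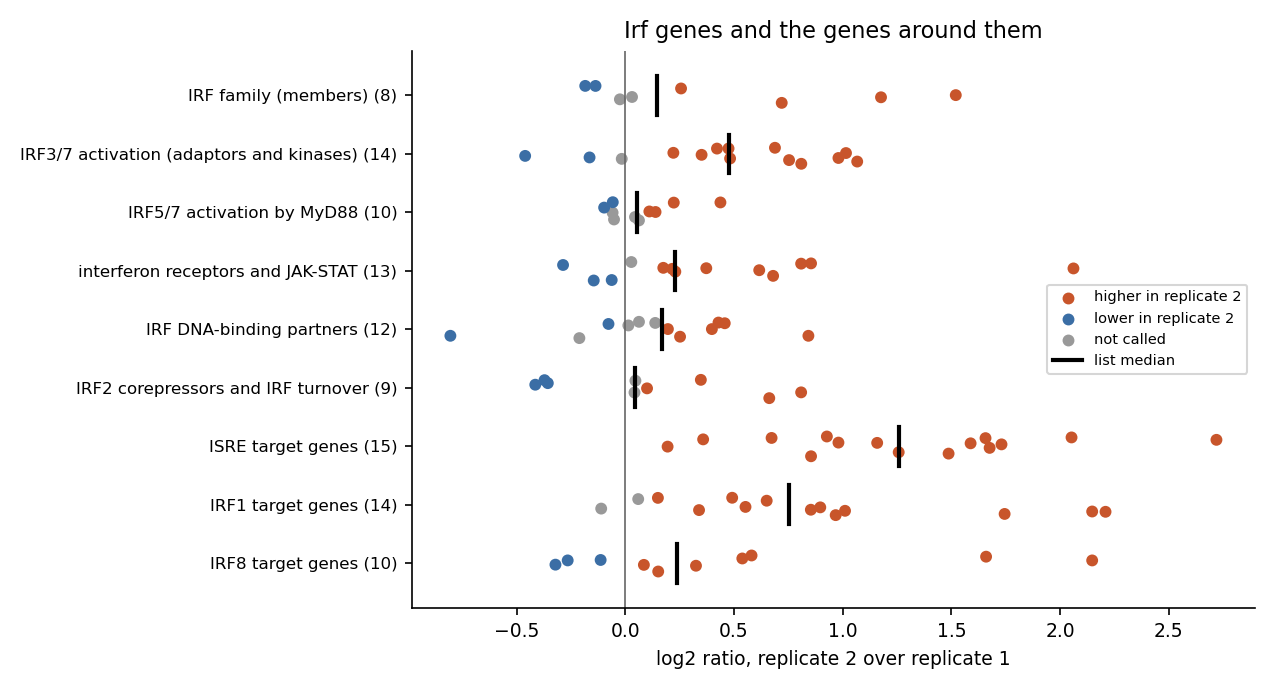
Log2 ratio of replicate 2 to replicate 1 for each tested gene of the Irf family and 8 lists around it (number tested in brackets), orange for genes called higher, blue for lower, grey for not called, with a black bar at the list median. The ISRE and IRF1 target lists have medians of 1.26 and 0.75, against 0.14 for the family and 0.05 for the MyD88 list.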

How the data were processed

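Both libraries of polyadenylated RNA in a single group were analysed. Per the deposited text files, values were made on mm10 with GENCODE M21. Quantification tools: not given in the sources used here. Per the file headers, the authors' gene and transcript tables (the first quantification) give expected counts, which are estimated reads, TPM, the percent of a gene's TPM per transcript, and posterior means and SDs of counts. A second transcript table, deposited by the authors, gives estimated counts and TPM, summed per gene here. Transcript shares were recomputed from TPM.

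Expected counts were rounded and tested with an exact two-sided binomial test (scipy 1.17.1), with TMM scaling and filterByExpr from edgeR 4.0.16, and called at an adjusted p under 0.05. Log2 ratios used a prior count of 2. DESeq2 1.42.0 size factors, total counts and no filter were alternatives. The test was run on simulated data first. All 8 Irf genes passed the count filter.

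The members and lists were chosen with earlier results of these data known. Named genes were, per list, the 3 of highest mean TPM and up to 4 called beyond 2-fold. Transcripts were named at 10% or more of their gene. Marker genes and Irf7-210 named beside a result, and Spib, were chosen after values were seen. The narrow NF-κB motif and the scaling alternatives of the lists were added after seeing the data. No protein table was used here, so a comparison of protein sequences was not run. A few listed genes that the rule would name are not reported here.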

Additional observations from a re-analysis of the deposited data

How the results depend on the processing

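Detection of Irf genes in both libraries gave 7 of 8 at limits of 1, 5 and 10 TPM and in the second quantification, and 8 at 0.5 TPM. It ranged from 7 to 8 when a replicate was left out. The number of Irf genes called lower fell from 2 to 1 under scaling by total counts. That scaling turned Irf2 from -0.03 to 0.092 on the log2 scale, moved Irf9 to 0.15 and took the call from Irf5 at -0.02. No other alternative changed a call of an Irf gene. Under total counts the genes called lower fell to 1 for IRF3 and IRF7 activation, 0 for the MyD88 branch, 1 for receptors and JAK-STAT and 1 for DNA-binding partners, and those called higher in the MyD88 branch rose to 7. Over all genes tested, that scaling called 42.8% higher and 20.3% lower. The other 27 of 32 list counts kept within 1.5 times, among them the DNA-binding partners called higher, which rose from 6 to 9 under total counts. Of 32 tested log2 ratios under alternatives, 29 kept their side of the threshold, among them Irf9, uncalled in both but at -0.01 in the second quantification. Of 24 ratios of log2 TPM, which have no test, Irf2 was at 0.0018 without a pseudocount, of the other sign but near 0, and 3 moved by over 0.25, namely Irf3 without a pseudocount at 0.51 and with 0.1 at 0.51, and Irf4 with a pseudocount of 1 at 0.61. Second-quantification means for Irf2, Irf5, Irf8 and Irf9 were 56.8, 107, 149 and 42.3 TPM, outside the spread of the libraries, as were 14 of 20 transcript shares. Without the count filter, 41.8% of 19596 genes were called, against 63.5%. Leaving out a replicate leaves 1 library and no ratio. No paired analysis was possible because the samples form a single group. Depth limits Irf4 and the short partial transcripts.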
